A study of Homo sapiens with 6 samples.

Results

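The clustered protocadherins are the genes of 3 neighbouring clusters, alpha, beta and gamma, on human chromosome 5. Members were the protein-coding genes whose GENCODE release 44 symbols begin with PCDHA, PCDHAC, PCDHB, PCDHGA, PCDHGB or PCDHGC followed by a number. The count table held 53 of them among its 67060 genes. The alpha cluster has 15 members at chr5:140786136-141012347 (GRCh38), the beta cluster has 16 at chr5:141051374-141249365, and the gamma cluster has 22 at chr5:141330514-141512977, all on the plus strand. The gamma cluster divides into 12 gamma-A genes, 7 gamma-B genes and the C-type genes PCDHGC3, PCDHGC4 and PCDHGC5. With PCDHAC1 and PCDHAC2 of the alpha cluster there are 5 C-type members.

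RNA was sequenced from SH-SY5Y, a human neuroblastoma cell line that the labels describe as a neuronal progenitor, to examine gene expression after introduction of Estrogen-related receptor gamma. Cells were grown in DMEM with 10% FBS to 80% confluence and given 0.5 ul of adenovirus. The control group received Ad CMV GFP (replicates 1, 3 and 4), and the other group received Ad CMV 3xFlag-Esrrg (replicates 2, 3 and 4), in which the CMV promoter drives the mouse Esrrg coding sequence with a 3xFlag tag. Total RNA was collected after 24 h and depleted of ribosomal RNA, giving 3 libraries per group, called GFP and ESRRG libraries here. All libraries come from the same cell line, and the sources used here do not say that they are separate cultures, so the p-values measure the spread between these libraries only.

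Clustered protocadherins are cell surface adhesion proteins in which each gene supplies its own extracellular cadherin repeats, and in neurons each cell uses a small set of them, so that neurites of the same cell can recognize each other. Each alpha and gamma transcript joins a single variable exon, read from a promoter of its own, to constant exons that the whole cluster shares, whereas beta genes consist of a single coding exon and share no constant part. Most of these promoters carry a conserved element with the core CGCT that is bound by the insulator protein CTCF, and distal enhancers are brought to the promoters by CTCF and the cohesin ring. The C-type genes are used more evenly from neuron to neuron than the alternate genes.

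The next lines give 50 bases around the CGCT core, in capitals, upstream of the RefSeq start of 9 members (GRCh38.p14, plus strand, 5′ to 3′). They were chosen with the changes known, and are shown because members with almost the same element differed in their change between groups. PCDHB10, PCDHB12 and PCDHB15 differed only in the size of a decrease. A part of the element in the changes was not tested.
PCDHA2, chr5:140794775-140794824: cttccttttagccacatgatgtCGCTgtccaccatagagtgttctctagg
PCDHA12, chr5:140875238-140875287: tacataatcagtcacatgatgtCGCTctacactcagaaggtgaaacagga
PCDHB10, chr5:141192293-141192342: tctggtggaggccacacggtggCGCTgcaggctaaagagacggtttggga
PCDHB12, chr5:141208637-141208686: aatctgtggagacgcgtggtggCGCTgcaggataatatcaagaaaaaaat
PCDHB15, chr5:141245308-141245357: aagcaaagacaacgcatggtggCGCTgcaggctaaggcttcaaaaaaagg
PCDHGA3, chr5:141343761-141343810: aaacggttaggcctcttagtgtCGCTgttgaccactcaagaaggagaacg
PCDHGA7, chr5:141382643-141382692: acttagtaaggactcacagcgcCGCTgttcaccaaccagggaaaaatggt
PCDHGA8, chr5:141392562-141392611: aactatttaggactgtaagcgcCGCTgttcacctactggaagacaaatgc
PCDHGC3, chr5:141475874-141475923: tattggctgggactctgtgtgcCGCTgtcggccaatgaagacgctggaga

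RefSeq promoter entries, read here for the 250 bases before each start on both strands, were matched by symbol for 47 members. Those without an entry were PCDHA3, PCDHA13, PCDHB6, PCDHB11, PCDHGA12 and PCDHGC5. The core CGCT stood in 45 of the 47 (95.7%), against 64.8% of all 35116 promoters. Longer words around the core, chosen after these promoters had been viewed and each overlapping the core, went with the classes. GATGTCGCT stood in 9 of 11 alpha promoters outside the C-type genes and in no other member, against 0.0854% of all promoters. GGTGGCGCT stood in 12 of 14 beta promoters and in no other member, against 0.41% of all promoters. CGCTGTT stood in 10 of 11 gamma-A, 3 of 7 gamma-B and 1 of 14 beta promoters, against 1.79% of all promoters. GCCGCTG, which can overlap CGCTGTT, stood in 6 gamma-A, 4 gamma-B and 2 C-type promoters, against 8.23% of all promoters. TNAAGGTCA, the extended site to which Estrogen-related receptors bind, was in 0 of the 47 windows and in 0.854% of all promoters, and the core of the CTCF motif was in 1 window (2.13%) and in 2.02% of all promoters.

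Counting decides what a value of these genes stands for. The first shared coding exon of each cluster is shown because its reads fit every gene of that cluster at the same time, and HTSeq-count sets such reads aside as ambiguous.
alpha constant exon 1, chr5:140978949-140979007, shared by 15 members: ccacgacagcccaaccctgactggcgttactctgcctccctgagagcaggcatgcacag
gamma constant exon 1, chr5:141494807-141494865, shared by 22 members: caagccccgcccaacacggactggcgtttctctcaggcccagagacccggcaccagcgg
A count of an alpha or gamma gene is therefore a count of reads from bases that no other annotated gene covers, here called own exon bases. Own exon bases made up 36.3% to 78.6% of the exon length in the 14 alpha genes tested, 35.6% to 72.5% in the gamma genes and 56.1% to 100% in the beta genes. Genes on the opposite strand remove bases too. Of 316 genes covered on the opposite strand over their whole exon length, 302 had 0 counts in every library, while 76.9% of the genes with at least 500 own exon bases had counts, the pattern of counting without strand. PCDHA1, left with 7 own exon bases, had 0 counts in all 6 libraries, so its expression is not measured by this table. Variable exons resemble each other within a class, and the share of 100-base words of own exon sequence found at a single place in the genome ran from 74.5% (PCDHB8) upwards.

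Reads counted on genes numbered 24969759 to 29700980 in the GFP libraries and 26513620 to 40859666 in the ESRRG libraries. The human gene ESRRG, whose count holds its own transcripts and any reads of the introduced mouse sequence that align to it, had 83.6, 90.4 and 86.9 normalized counts per 1000000 (CPM) in the GFP libraries and 570, 772 and 778 in the ESRRG libraries. The ESRRG libraries did not resemble each other in the reads that HTSeq-count assigned to no counted feature, here called no-feature reads. No-feature reads can lie within genes, as in introns, as well as between genes. Such reads made up 51.3% to 52.2% of all reads in the GFP libraries, 46.6% in ESRRG replicate 2, 31.6% in replicate 3 and 29.5% in replicate 4. Ambiguous reads made up 4.55% to 4.87% in the GFP libraries and 5.69%, 9.84% and 9.79% in the ESRRG libraries. Of 10 markers of adrenergic neuroblastoma cells, TH and CHGA had 0 counts in every library, and the other 8 had counts, with summed levels of 808.5 to 860.9 normalized CPM in the GFP libraries and 610.6 to 796.1 in the ESRRG libraries. All 10 markers of substrate-adherent cells, the other type in SH-SY5Y cultures, had counts, and their sum was 5856 to 6074 against 6101 to 6914. Among the adrenergic markers 2 were lower and 2 higher, and among the substrate-adherent markers 2 were lower and 1 higher, where 16.8% of all tested genes were lower and 17.3% higher. Fewer cells of a type and less RNA per cell cannot be told apart in these bulk samples, and the part of these differences in the results was not tested.

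With Ad CMV 3xFlag-Esrrg, clustered protocadherin levels were lower for 25 of the 51 members that could be tested, and no member was higher (edgeR quasi-likelihood test, Benjamini-Hochberg adjusted p below 0.05 over 24500 genes and a fold change of at least 1.5). The 25 are 49.0% of the members tested, whereas 16.8% of all tested genes were lower and 17.3% were higher, and 12.4% of the protein-coding genes were lower. Without the fold cutoff 34 members were lower and 1, PCDHGC3, was higher, against 23.5% and 24.3% of all tested genes. Log2 fold changes ran from -1.40 (PCDHGA3) to 0.38 (PCDHGC3), 46 of 51 were negative, and the median was -0.625, against -0.104 for all tested genes and 0.123 for protein-coding genes. PCDHA1, with 0 counts, and PCDHB1, with 1 to 3 counts a library, were too low to be tested.

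All 3 ESRRG libraries lay below all 3 GFP libraries for 39 of the 51 members, against 30.3% of all tested genes, and above them for 3, against 27.8%. The difference was present in each ESRRG library on its own. Against the mean of the GFP libraries, the median log2 difference of the members was -0.417 in ESRRG replicate 2, -0.601 in replicate 3 and -0.753 in replicate 4, while over all tested genes it was -0.00468, -0.118 and -0.131. Below the lowest GFP library lay 43 of the 51 members (84.3%) in replicate 2, against 39.2% of all tested genes, 45 (88.2%) in replicate 3, against 47.9%, and 43 (84.3%) in replicate 4, against 48.6%. The share of no-feature reads moved with the size of the difference over these 3 libraries. Its part in the result was not tested beyond a fit with that share as a covariate (the covariate fit). In that fit 10 members were lower (9 of them among the 25) and 0 higher, against 5.4% and 7.24% of all tested genes. On simulated data that fit found 26 of 100 genes changed 2-fold. The scaling also matters, since library size as the only scaling moved the median of all tested genes from -0.104 to -0.422, with 30.9% of all genes lower and 8.98% higher, and 38 members were then lower and 0 higher. After a correction for GC content and length all 51 log2 fold changes were negative and 30 were called lower, against 14.3% of all tested genes.

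**Figure D1:**
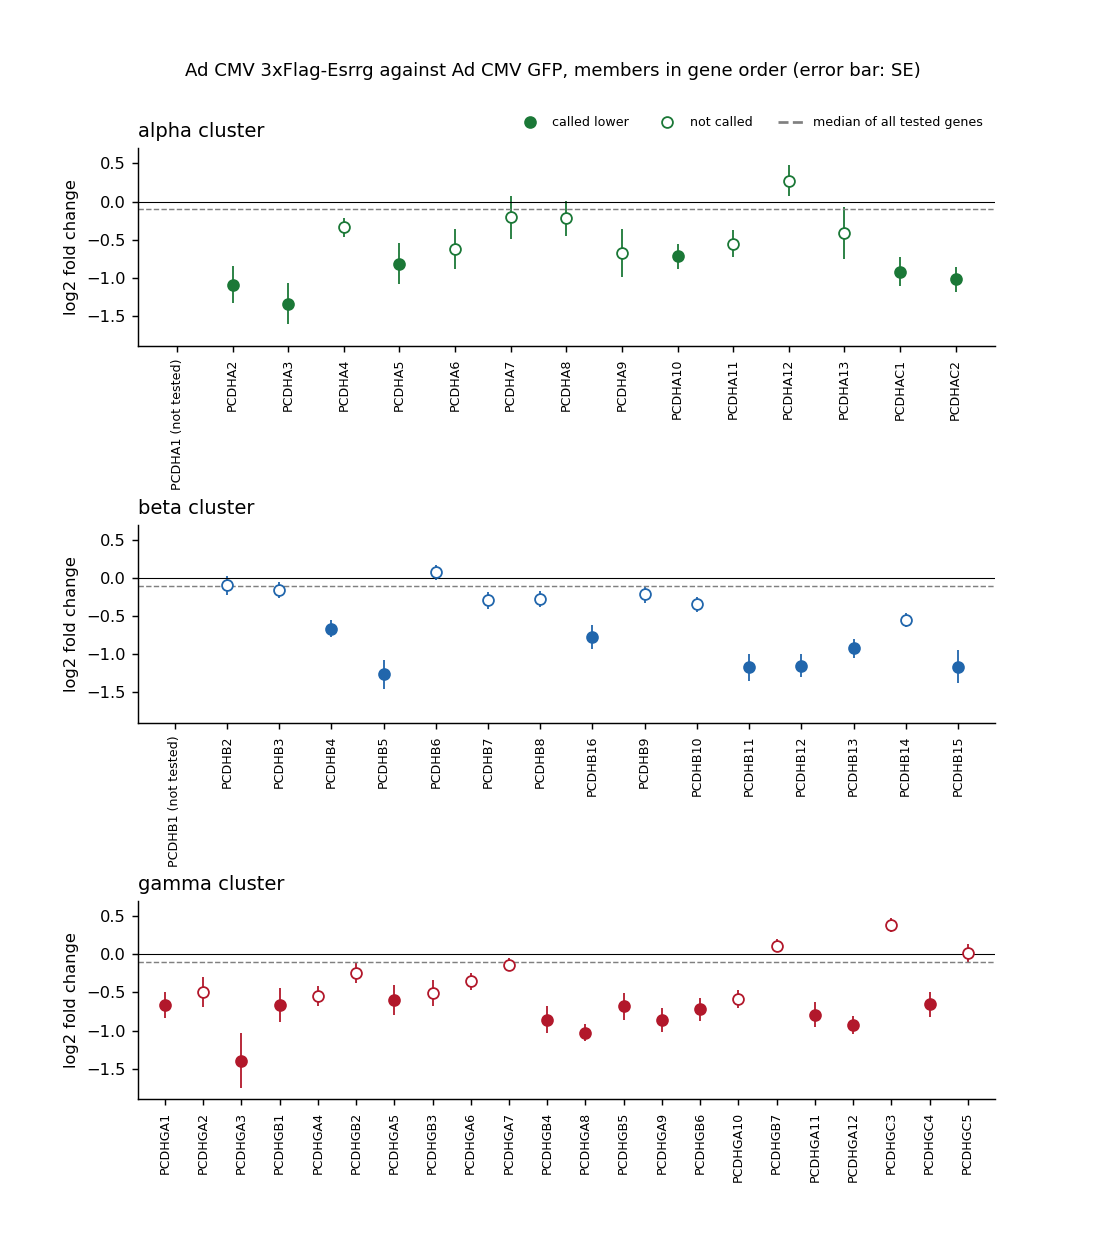
Log2 fold change (Ad CMV 3xFlag-Esrrg against Ad CMV GFP, TMM scaling) of each member in gene order along the alpha, beta and gamma clusters, with its standard error as a bar. Filled points are the 25 members called lower, open points the 26 not called, and the dashed line is the median of all tested genes (-0.104). Most points lie below that line, and the 5 above 0 are PCDHA12, PCDHB6, PCDHGB7, PCDHGC3 and PCDHGC5, all of which had negative values with library size as the only scaling except PCDHGC3.

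In the alpha cluster 6 of 14 tested members were lower and 0 higher, with a median log2 fold change of -0.65. The summed level of the cluster was 45.5, 46.9 and 42.9 normalized CPM in the GFP libraries and 30.6, 29.5 and 27.8 in the ESRRG libraries, a ratio of 0.651. The groups of libraries did not overlap. PCDHA3 had the largest decrease, from 2.80, 1.75 and 1.63 normalized CPM to 0.860, 0.743 and 0.822, a log2 fold change of -1.34 ± 0.27 (SE, adjusted p = 0.00239, edgeR).

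The spread in PCDHA3 came from GFP replicate 1, and every GFP library was still above every ESRRG library. PCDHA2, which supplies another of the alternate alpha exons, fell from 1.31, 1.23 and 1.33 normalized CPM to 0.599, 0.683 and 0.528 (log2 fold change -1.09 ± 0.25, adjusted p = 0.00439, edgeR). PCDHA2 rests on 16 to 44 reads a library and PCDHA3 on 23 to 79, and neither was called in the covariate fit (log2 fold change -1.06, adjusted p = 0.163, and -1.15, adjusted p = 0.0844, edgeR). Outside the C-type genes, PCDHA12 and PCDHA4 had the highest alpha levels per kb of own exon sequence over all 6 libraries, and neither was called. PCDHA4 had 8.34, 9.18 and 9.06 normalized CPM in the GFP libraries and 7.52, 6.39 and 7.16 in the ESRRG libraries, a log2 fold change of -0.34 ± 0.13 that is under the fold cutoff.

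PCDHA12 was the alpha gene that went the other way. Its levels were 1.67, 1.71 and 1.51 against 1.76, 1.90 and 2.23 normalized CPM, with a log2 fold change of 0.27 ± 0.20 that did not pass the test (adjusted p = 0.282, edgeR), and the sign turned with library size as the only scaling (-0.06) and after the GC and length correction (-0.12). PCDHA12 and PCDHA2 carry the same word GATGTCGCT upstream of their starts.

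In the beta cluster 7 of 15 tested members were lower and 0 higher, with a median of -0.547. Beta genes have no shared exons, so their counts cover most of the transcript. Their sum was 217, 208 and 214 normalized CPM in the GFP libraries and 163, 152 and 158 in the ESRRG libraries, a ratio of 0.741 with no overlap. PCDHB5, a beta gene of low level, had 3.33, 3.81 and 3.32 normalized CPM in the GFP libraries and 1.68, 1.34 and 1.35 in the ESRRG libraries (log2 fold change -1.27 ± 0.19, adjusted p = 0.000443, edgeR).

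PCDHB11 was at 9.44, 8.70 and 10.2 normalized CPM and fell to 5.46, 3.56 and 3.64 (log2 fold change -1.17 ± 0.18, adjusted p = 0.000465, edgeR). PCDHB15 was at 6.42, 7.02 and 8.28 and fell to 4.41, 3.09 and 2.29 (log2 fold change -1.16 ± 0.22, adjusted p = 0.00168, edgeR). In both genes ESRRG replicate 2 was the highest of its group and still below every GFP library. PCDHB15 was not called in the covariate fit (log2 fold change -0.475, adjusted p = 0.174, edgeR). PCDHB12, named after its values were seen, fell by 1.15 ± 0.14 on the log2 scale, from 13.3, 10.8 and 13.0 normalized CPM to 6.28, 4.78 and 5.69 (adjusted p = 0.000166, edgeR).

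The 2 beta genes with the highest levels per kb moved less. PCDHB6 had 21.4, 23.4 and 21.6 normalized CPM in the GFP libraries and 23.4, 22.1 and 24.3 in the ESRRG libraries, overlapping groups with a log2 fold change of 0.07 ± 0.10 (adjusted p = 0.547, edgeR), which turned to -0.245 with library size as the only scaling, -0.16 after the GC and length correction and -0.06 in a fit of protein-coding genes only. Its share of the summed beta level was between 9.87% and 11.3% in the GFP libraries and between 14.4% and 15.4% in the ESRRG libraries. PCDHB10 had 25.7, 24.2 and 23.4 against 18.96, 18.75 and 19.96 normalized CPM, which did not overlap, and its log2 fold change of -0.35 ± 0.09 passed the adjusted p (0.0121, edgeR) but not the fold cutoff. PCDHB10, PCDHB12 and PCDHB15 all hold GGTGGCGCT, at 38, 60 and 65 bases upstream of the start.

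In the gamma cluster 12 of 22 members were lower and 0 higher, 7 of 12 in the gamma-A class and 4 of 7 in the gamma-B class, with a median of -0.625. The cluster sum moved little, from 370, 361 and 369 normalized CPM in the GFP libraries to 337, 319 and 338 in the ESRRG libraries, a ratio of 0.905. Taken alone, the gamma-A genes had a sum of 166, 155 and 162 that became 121, 107 and 112, a ratio of 0.705. A few abundant members make up much of the gamma sum. PCDHGC3, PCDHGB7 and PCDHGA7 had the highest levels of all members per kb, at 29.6, 23.03 and 13.7 normalized CPM per kb. Without them the remaining 19 gamma genes had a ratio of 0.649. The genes left out had log2 fold changes of 0.38, 0.11 and -0.13, so leaving them out was bound to lower the ratio.

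PCDHGA3 had the lowest level of the gamma genes per kb and the largest decrease of all members. It went from 2.625, 1.164 and 1.601 normalized CPM to 0.973, 0.594 and 0.499 (log2 fold change -1.40 ± 0.36, adjusted p = 0.00884, edgeR), with 17 to 74 reads a library, and it was not called in the covariate fit (log2 fold change -0.51, adjusted p = 0.531, edgeR). PCDHGA8 gave the smallest p of the members. Its levels of 14.6, 14.7 and 15.0 normalized CPM in the GFP libraries became 7.74, 6.54 and 7.48 in the ESRRG libraries (log2 fold change -1.03 ± 0.12, adjusted p = 9.35e-05, edgeR). PCDHGA12 went from 12.3, 12.3 and 13.6 to 7.11, 6.45 and 6.63 normalized CPM (log2 fold change -0.92 ± 0.12, adjusted p = 0.000168, edgeR).

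In PCDHGA8 and PCDHGA12 the ESRRG libraries lay far outside the spread of the GFP libraries. PCDHGA11, the gamma-A gene with the second highest level per kb, went from 18.6, 16.5 and 18.8 to 13.1, 8.08 and 10.1 normalized CPM (log2 fold change -0.79 ± 0.16, adjusted p = 0.0024, edgeR), and was not called in the covariate fit (-0.32, adjusted p = 0.177, edgeR). PCDHGA7, the gamma-A gene with the highest level, overlapped between groups at 47.1, 45.4 and 47.6 against 41.3, 41.0 and 45.5 normalized CPM (log2 fold change -0.13 ± 0.09, adjusted p = 0.244, edgeR). PCDHGA7 and PCDHGA8 are consecutive gamma-A genes and both hold CGCTGTT.

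PCDHGB7, the most abundant gamma-B gene, had 63.8, 59.6 and 61.5 normalized CPM in the GFP libraries and 64.3, 65.6 and 70.1 in the ESRRG libraries (log2 fold change 0.11 ± 0.09, adjusted p = 0.309, edgeR), and its sign turned with library size as the only scaling (-0.21), after the GC and length correction (-0.22) and among protein-coding genes only (-0.02). PCDHGB2, next in level in that class, had 8.69, 8.28 and 9.97 against 7.71, 6.92 and 8.13 (log2 fold change -0.24 ± 0.13, adjusted p = 0.149, edgeR). Neither gamma-B gene was called, whereas 4 less abundant genes of the class were. PCDHGB3, also less abundant, was under the fold cutoff (log2 fold change -0.51 ± 0.17) and was not called.

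**Figure D2:**
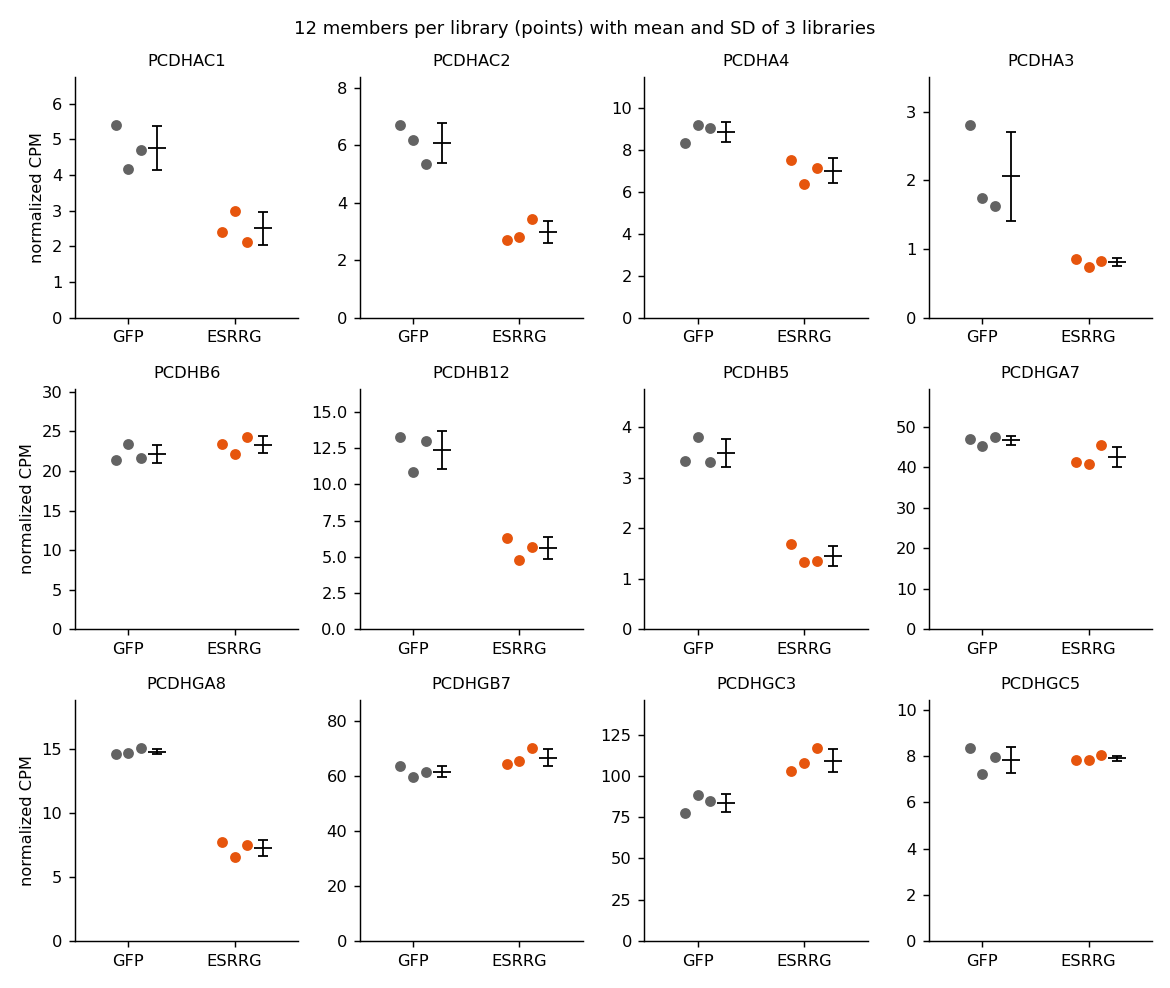
Normalized CPM of 12 members in each library (points, ordered by replicate number within the Ad CMV GFP and the Ad CMV 3xFlag-Esrrg group), with the mean and SD of the 3 libraries at the right of each group and axes that start at 0. PCDHAC1, PCDHAC2, PCDHA3, PCDHB12, PCDHB5 and PCDHGA8 show separate groups with lower ESRRG libraries, PCDHB6, PCDHGA7 and PCDHGC5 overlap, and PCDHGC3 is higher in every ESRRG library under TMM scaling.

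The C-type genes, which lie at the downstream ends of the alpha and gamma clusters, went in different directions. PCDHAC1 fell from 5.39, 4.17 and 4.71 normalized CPM to 2.39, 3.0 and 2.11 (log2 fold change -0.92 ± 0.19, adjusted p = 0.0026, edgeR). PCDHAC2 fell from 6.70, 6.21 and 5.35 to 2.69, 2.82 and 3.43 (log2 fold change -1.02 ± 0.17, adjusted p = 0.000718, edgeR). Both alpha C-type genes therefore separated the groups, and their decreases remained called in the covariate fit.

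PCDHGC4 fell from 8.55, 8.18 and 8.70 to 6.40, 4.22 and 5.58 normalized CPM (log2 fold change -0.66 ± 0.16, adjusted p = 0.0069, edgeR). This call was lost in DESeq2 (-0.58), in the covariate fit (-0.325, adjusted p = 0.3, edgeR) and without ESRRG replicate 3 (-0.50, adjusted p = 0.0351, edgeR). PCDHGC5, the last gene of the cluster, had 8.34, 7.21 and 7.98 against 7.82, 7.84 and 8.04 normalized CPM. The ESRRG libraries lay within the range of the GFP libraries, and the log2 fold change was 0.01 ± 0.12 (adjusted p = 0.943, edgeR), turning to -0.44 after the GC and length correction and -0.31 when scaled by library size alone.

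PCDHGC3, the most abundant member per kb and a gamma gene found in many cell types, was the 1 member that passed the adjusted p in the upward direction. It had 77.7, 88.3 and 85.1 normalized CPM in the GFP libraries and 103, 108 and 117 in the ESRRG libraries, with a log2 fold change of 0.38 ± 0.10 (adjusted p = 0.00763, edgeR), which is under the fold cutoff and became -0.03 after the GC and length correction (an adjusted p of 0.795). Every ESRRG library was above every GFP library. Its share of the summed gamma level was 21.01%, 24.5% and 23.1% in the GFP libraries and 30.5%, 33.9% and 34.5% in the ESRRG libraries, a measure that scaling between libraries does not alter. The sum of the 5 C-type genes, most of which is PCDHGC3, went from 110.9 ± 3.8 to 128.0 ± 7.1 normalized CPM (SD, n = 3 per group), a log2 ratio of 0.21 that turned to -0.115 with library size as the only scaling.

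**Figure D3:**
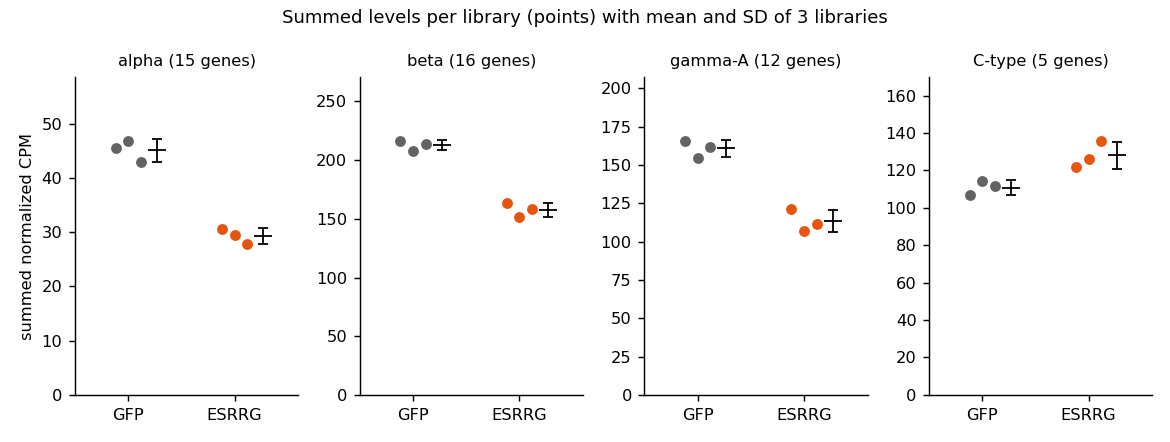
Summed normalized CPM per library (points) of the alpha cluster, the beta cluster, the gamma-A class and the C-type class, with the mean and SD of 3 libraries per group and axes that start at 0; PCDHAC1 and PCDHAC2 enter both the alpha and the C-type sums. The alpha, beta and gamma-A sums are lower in every Ad CMV 3xFlag-Esrrg library (ratios 0.651, 0.741 and 0.705), whereas the C-type sum is higher (ratio 1.155 under TMM scaling, reversed by library size as the only scaling).

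Levels were compared between genes as normalized CPM per kb of own exon sequence. Alpha genes ran from 0.258 to 1.39, beta genes from 0.0077 (PCDHB1) to 7.16 (PCDHB6) and gamma genes from 0.461 (PCDHGA3) to 29.6 (PCDHGC3). Each cluster as a whole stood above a background taken from 397 olfactory receptor genes, which neuroblastoma cells are not known for expressing. Summed over genes that background was 0.0219 to 0.0472 normalized CPM per kb in the 6 libraries, against 0.466 to 0.785 for the alpha cluster, 2.53 to 3.61 for the beta cluster and 4.36 to 5.05 for the gamma cluster. Of the 52 members with a level, only PCDHB1 was at or below the 95th percentile of the olfactory receptor genes (0.242) over all 6 libraries. In the ESRRG libraries alone PCDHA2 (0.2298), PCDHA3 (0.2246) and PCDHA7 (0.2405) were below that value too.

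Among members, a higher level over all 6 libraries went with a smaller decrease in the beta cluster. Across its 15 tested genes, Pearson's r between log2 level per kb and log2 fold change was 0.853 (Spearman's rho 0.871), in the gamma cluster it was 0.703 (rho 0.348, n = 22) and in the alpha cluster 0.073 (rho -0.0154, n = 14). These points share libraries and counting, and across 13731 protein-coding genes rho was 0.39. The level takes in the ESRRG libraries, so a decrease lowers it, and part of each of these correlations is built in. The relation to the level in the GFP libraries alone was not tested. By level, 9 of 18 members under 1 normalized CPM per kb were lower, where 24.7% of protein-coding genes were. Between 1 and 3 it was 14 of 18 members (77.8%), against 19.5%, and at 3 or more it was 2 of 15 members (13.3%), against 6.86%. PCDHGA11 and PCDHGA12 were the 2 called genes at 3 or more. These bins use the level over all 6 libraries, so a decrease itself moves a gene down. In the GFP libraries alone PCDHB4 (3.54), PCDHB12 (3.19), PCDHB13 (3.07), PCDHGA8 (3.50), PCDHGB5 (3.15), PCDHGA9 (3.56) and PCDHGC4 (3.035) were at 3 or more as well. All of these were called lower, so the shares by bin depend on how the level is taken. GC content and length of the own exon sequence went less closely with the change (r 0.222 and -0.151, n = 51), and so did the share of words found once (r -0.119).

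**Figure D4:**
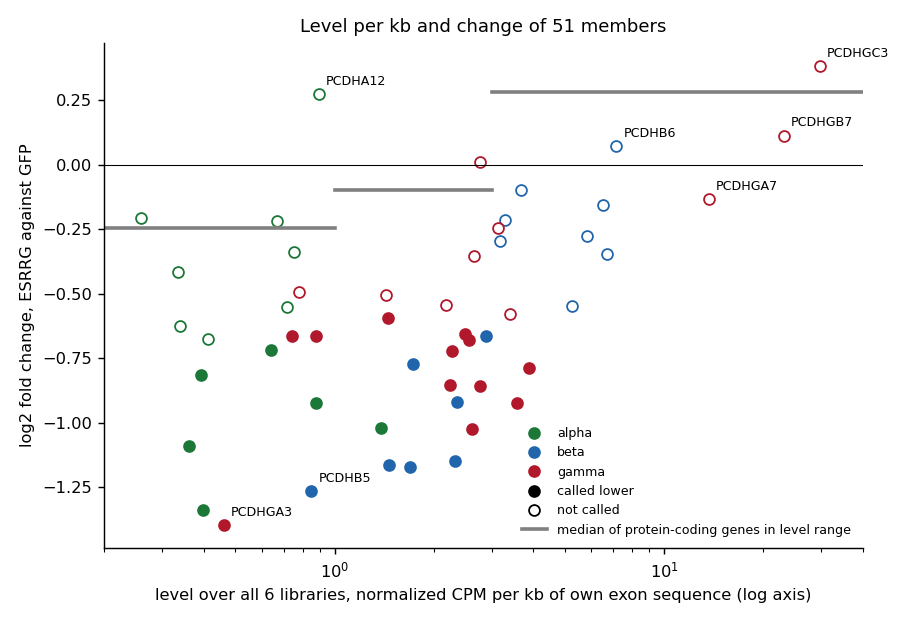
Level over all 6 libraries (normalized CPM per kb of own exon sequence, log axis) against log2 fold change of the 51 members tested, coloured by cluster, with filled points for members called lower. Grey lines give the median of protein-coding genes under 1 (-0.245), from 1 to 3 (-0.0976) and at 3 or more (0.28). Most members lie below the grey line of their level. The 4 genes of the highest level over all 6 libraries, PCDHB6, PCDHGA7, PCDHGB7 and PCDHGC3, lie between -0.13 and 0.38. In the GFP libraries alone PCDHB10 (7.52, log2 fold change -0.35) had a higher level than PCDHB6 (6.98).

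Members fell both with and without the longer words upstream of their starts. Of 38 tested members with any of the longer words, 20 were lower (median log2 fold change -0.64). Of 7 with a promoter entry but no such word, 2 were lower (median -0.552). Among all tested genes 16.8% were lower, and among protein-coding genes 12.4%. The 2 called members without a word were the alpha C-type genes PCDHAC1 and PCDHAC2, so class and lack of a word cannot be told apart there.

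Pseudogenes inside the clusters went with the members. All 5 that could be tested, of 6, were lower (median log2 fold change -1.2), against 22.4% of all tested genes that are not protein-coding: PCDHB17P, PCDHB18P, PCDHB19P, PCDHGB8P and PCDHGB9P. PCDHB19P had 3.76, 3.56 and 3.05 normalized CPM in the GFP libraries and 2.21, 1.04 and 0.969 in the ESRRG libraries (log2 fold change -1.32 ± 0.29, adjusted p = 0.00379, edgeR). PCDHB17P had 4.54, 4.11 and 4.11 against 1.91, 1.72 and 1.67 (log2 fold change -1.27 ± 0.17, adjusted p = 0.000246, edgeR). In the covariate fit PCDHB17P was the 1 of the 5 that was called (log2 fold change -1.09, adjusted p = 0.00942, edgeR), while PCDHB19P moved to -0.28 (adjusted p = 0.601, edgeR). These copies resemble members, so reads between them can be split in an uncertain way. Against all GENCODE genes PCDHB17P and PCDHB18P have 0 own exon bases although both have counts, and against the genes of the count table alone they have 2393 and 2368, so own exon bases as used here do not describe their counts. PCDHB19P likewise has 198 or 1507, while the own exon bases of all 53 members are the same either way.

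Other genes inside the clusters that are not protein-coding fell as well, 6 of 8 tested (75.0%, median log2 fold change -0.8) with none higher. Of all tested genes that are not protein-coding, 22.4% were lower and 6.31% higher. ENSG00000273557, a long non-coding RNA gene of the gamma cluster, had 2.45, 3.07 and 3.05 normalized CPM against 1.83, 1.51 and 1.26 (log2 fold change -0.90 ± 0.21, adjusted p = 0.00527, edgeR). ENSG00000277795, a processed pseudogene, overlaps TAF7 on the opposite strand, and 66.7% of its exon bases are its own. It had 2.31, 2.10 and 2.39 against 1.61, 0.921 and 1.23 (log2 fold change -0.87 ± 0.24, adjusted p = 0.0117, edgeR). The calls of both were lost after the GC and length correction (-0.35 and -0.32) and in the covariate fit (-0.52 and -0.35), and that of ENSG00000277795 without ESRRG replicate 3 (-0.675, adjusted p = 0.0597, edgeR).

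The protein-coding genes between the beta and gamma clusters differed from each other. TAF7, a subunit of the general transcription factor TFIID, had 92.4, 93.3 and 92.0 normalized CPM in the GFP libraries and 94.2, 123 and 116 in the ESRRG libraries (log2 fold change 0.26 ± 0.11, adjusted p = 0.072, edgeR), a sign that turned with library size as the only scaling (-0.07) and in the covariate fit (-0.07). SLC25A2, a mitochondrial ornithine carrier, had 4.26, 4.04 and 4.20 against 2.51, 2.02 and 2.38 (log2 fold change -0.86 ± 0.17, adjusted p = 0.002, edgeR), a call lost in the covariate fit (-0.695, adjusted p = 0.0839, edgeR). Every ESRRG library was above the GFP range for TAF7 and below it for SLC25A2.

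Protein-coding genes within 500 kb on either side of the clusters were higher more often than lower, as protein-coding genes were in general. Of 26 tested, 10 were higher (38.5%, against 25.9% of all protein-coding genes) and 2 lower (7.69%, against 12.4%), with a median of 0.37 against 0.123 for all protein-coding genes. NDUFA2, a subunit of respiratory complex I, rose from 10.2, 11.6 and 9.21 normalized CPM to 17.8, 32.8 and 32.6 (log2 fold change 1.43 ± 0.21, adjusted p = 0.000398, edgeR), and VTRNA1-3, a vault RNA gene upstream of the alpha cluster, rose from 0.887, 1.33 and 1.03 to 3.07, 6.95 and 5.90 (log2 fold change 2.30 ± 0.31, adjusted p = 0.000238, edgeR). In both, ESRRG replicate 2 was the lowest of its group. With no-feature reads as a covariate NDUFA2 was not called (0.51).

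The non-clustered protocadherins, which lie mostly on other chromosomes and have promoters of another kind, held genes of each direction. Of 13 genes 8 were tested, 2 were lower and 2 higher (25% each), shares not far from the 16.8% and 17.3% of all tested genes. PCDH18 had the higher level of those that fell, at 309, 275 and 282 normalized CPM in the GFP libraries and 139, 146 and 145 in the ESRRG libraries (log2 fold change -1.01 ± 0.10, adjusted p = 4.2e-05, edgeR). PCDH7 rose from 4.47, 5.08 and 4.71 to 27.3, 26.2 and 26.0 (log2 fold change 2.48 ± 0.11, adjusted p = 4.17e-07, edgeR).

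Both genes had little spread within groups. PCDH15 rose from 7.34, 6.08 and 6.07 to 12.61, 8.496 and 8.951 (log2 fold change 0.62 ± 0.17, adjusted p = 0.0124, edgeR). That call was lost under 5 of the other settings, among them library size as the only scaling (0.32), and without GFP replicate 3 (0.58), GFP replicate 4 (0.58) or ESRRG replicate 2 (0.54). The other gene that fell was PCDH1, named after its values were seen, a neighbour downstream of the gamma cluster (log2 fold change -1.79 ± 0.28, adjusted p = 0.000543, edgeR).

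Genes that shape promoter choice and chromatin at the clusters were lower in 6 of 24 tested cases (25%, against 16.8% of all tested genes and 12.4% of protein-coding genes) and higher in none, against 17.3% and 25.9%. CTCF itself had 73.7, 82.8 and 81.8 normalized CPM in the GFP libraries and 82.2, 88.7 and 88.8 in the ESRRG libraries, overlapping groups with a log2 fold change of 0.12 ± 0.09 (adjusted p = 0.288, edgeR), which turned to -0.20 with library size as the only scaling and -0.01 among protein-coding genes only. RAD21, a subunit of the cohesin ring, fell from 161, 159 and 160 to 67.7, 69.8 and 69.6 (log2 fold change -1.21 ± 0.09, adjusted p = 7.5e-06, edgeR). STAG2, another cohesin subunit, fell from 140, 138 and 124 to 83.1, 63.1 and 60.2 (log2 fold change -0.96 ± 0.13, adjusted p = 0.000231, edgeR).

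The RAD21 libraries were tightly grouped, with no overlap. STAG2 was not called after the GC and length correction (-0.565) or in the covariate fit (-0.55). The other 4 that fell, named after their values were seen, were the cohesin loader NIPBL (-0.72), the cohesin regulator PDS5B (-0.61) and the DNA demethylases TET1 (-0.78) and TET2 (-0.72). SMCHD1, a repressor of the clusters in many tissues, had a log2 fold change of -0.56 that was under the fold cutoff. With the GC and length correction and in the covariate fit, 1 gene of this list was called in each.

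Genes of protocadherin processing and signalling were lower in 2 of 21 cases (9.52%, against 16.8% of all tested genes and 12.4% of protein-coding genes) and higher in 5 (23.8%, against 17.3% and 25.9%), shares near those of protein-coding genes in general. APH1A, a subunit of the gamma-secretase that cuts these proteins within the membrane, rose from 114, 137 and 125 normalized CPM to 236, 327 and 374 (log2 fold change 1.31 ± 0.16, adjusted p = 0.000134, edgeR). PSENEN, another gamma-secretase subunit, rose from 8.09, 10.1 and 7.04 to 14.9, 21.98 and 23.95 (log2 fold change 1.28 ± 0.19, adjusted p = 0.000381, edgeR). ESRRG replicate 2 was the lowest of its group in both. The other 3 that rose, named after their values were seen, were the WAVE complex subunits CYFIP1 (0.59), CYFIP2 (0.96) and BRK1 (0.62).

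RET, a receptor kinase found in complexes with protocadherins, fell from 144, 141 and 141 to 56.4, 59.6 and 66.6 normalized CPM (log2 fold change -1.22 ± 0.10, adjusted p = 1.37e-05, edgeR). MARCKS, a substrate of protein kinase C that acts downstream of gamma protocadherins in dendrites, fell from 1194, 1251 and 1225 to 642, 837 and 864 (log2 fold change -0.65 ± 0.13, adjusted p = 0.00261, edgeR). The MARCKS call was lost in DESeq2 (-0.56), with a block for replicate number (-0.54) and with that block plus the GC and length correction (-0.51). It was also lost without ESRRG replicate 2 (-0.42), the library with its lowest value.

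**Figure D5:**
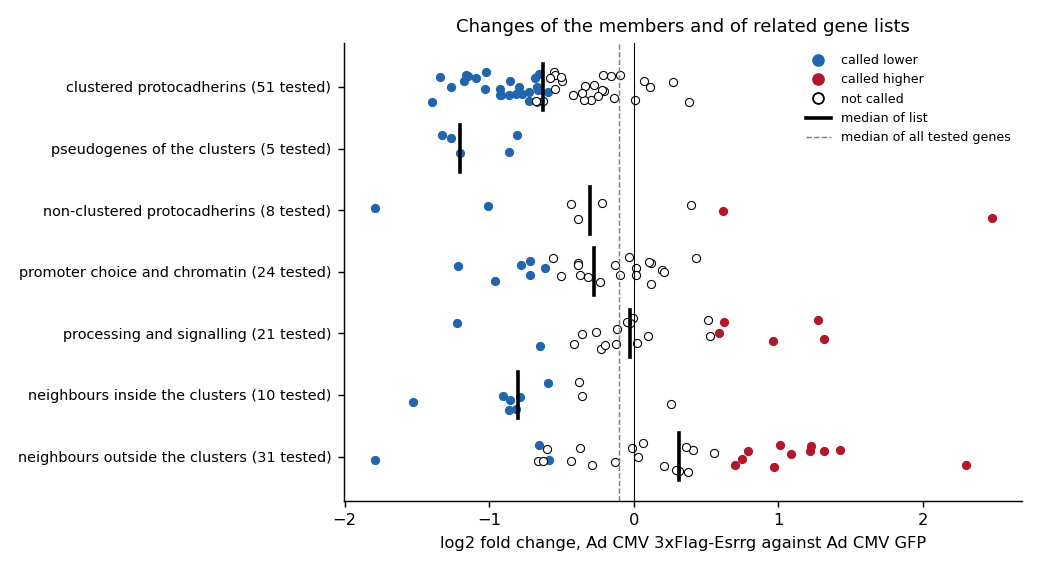
Log2 fold change of each tested gene in the clustered protocadherins and in 6 related groups (spread vertically for legibility), with blue for called lower, red for called higher, open for not called, a bar at each group's median and a dashed line at the median of all tested genes (-0.104). PCDH1 and PCDH12 appear both as non-clustered protocadherins and as neighbours. Members, cluster pseudogenes and neighbours inside the clusters lie mostly to the left, and neighbours outside the clusters mostly to the right.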

How the data were processed

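The authors' table holds raw counts per gene, deposited without normalization, for 6 libraries and 67060 genes with 5 HTSeq-count summary entries. The submitters' processing notes name GRCh38, CASAVA, Trim Galore 0.6.7, STAR 2.7.9a, HTSeq 0.11.3 and DESeq2. The annotation release and the strand setting are not given in the sources used here. Identifiers were matched to GENCODE release 44 (90.2%, the others held 0.153% of the counts).

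Counts were filtered with filterByExpr, scaled by TMM and tested with the quasi-likelihood test of edgeR 4.0.16 in R 4.3.3, on all 6 libraries without covariates. A gene was called at an adjusted p (Benjamini-Hochberg) below 0.05 with a 1.5-fold change or more, the cutoff of the study's methods for its mouse data. The SE was obtained by dividing the absolute log2 fold change by the root of F. Levels are normalized CPM per kb of exon bases that no other annotated gene covers, given for genes with at least 100 such bases, and medians per library used a pseudocount of 0.1 CPM.

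Members, lists and named genes were chosen with earlier results of these data known. Named were ESRRG, the C-type genes, the 2 genes of highest level in each other class, up to 3 called members per cluster and direction with the largest change (mean of at least 20 counts), CTCF, TAF7, SLC25A2, and up to 2 called genes per related list and direction (mean of at least 50 counts). No p-value was computed for a list or a sum.

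Alternatives were DESeq2 1.42.0, library size only, no filter, other fold cutoffs, a replicate block, GC and length curves (mgcv 1.9.3) and both together. A covariate for no-feature reads and leaving out each library were further alternatives. All reads as library size and protein-coding genes only were chosen after seeing the data. On simulated data for this comparison (24171 genes, 100 changed at each size), edgeR recovered 67 at a log2 change of 1 and 100 at 2, with 5 false calls. Promoter sequences came from RefSeq (GRCh38.p14). Tables were made with Python 3.11.15, numpy 2.4.6 and pandas 2.3.3, plots with matplotlib 3.10.9. Counts measure reads, so the limits that depth sets cover counting error only.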

Additional observations from a re-analysis of the deposited data

Results flagged for a closer look

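Reads that HTSeq-count could not assign to a single gene, which include those of the constant exons of the alpha and gamma clusters, are outside the gene counts. With Ad CMV 3xFlag-Esrrg they made up 5.69% (replicate 2), 9.84% (replicate 3) and 9.79% (replicate 4) of the library, and at most 4.87% in the Ad CMV GFP libraries. This was marked because a signal outside the main measurement was above its level in the control libraries. The table gives ambiguous reads as a total for each library, so how many of them came from protocadherin exons is not known.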

How the results depend on the processing

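Under each of the 17 other settings the 25 members called lower had negative log2 fold changes, and no member was called higher except PCDHGC3 without a fold cutoff. The settings with other fold cutoffs use the main fit, so their signs could not differ. The other settings refit the libraries from which the 25 were picked, so equal signs there are no independent check. The number called lower, with the share of all tested genes that were, was 9 (8.09%) with a 2-fold cutoff, 22 (13.1%) in DESeq2, 26 (10.9%) without a filter, 29 (19.3%) with all reads as library size, 33 (18%) with protein-coding genes only, and 19 (11.9%, without ESRRG replicate 4) to 25 (20.3%, without ESRRG replicate 2) when a library was left out.

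With a 2-fold cutoff 3 alpha, 4 beta and 2 gamma members were lower. So were 3 cluster pseudogenes, 2 neighbours, 1 promoter choice gene and 1 processing gene, against 8.09% of all tested genes. Higher at that cutoff were 1 non-clustered protocadherin, 2 processing genes and 7 neighbours, against 1952 of 24500 tested genes. With library size only 10 alpha and 11 beta members were lower. So were 4 non-clustered protocadherins, 12 of 24 promoter choice genes and 4 of 21 processing genes, against 30.9% of all tested genes. Higher were 1 non-clustered protocadherin and 3 processing genes, against 8.98% of all tested genes. The log2 ratios of the alpha, beta and gamma sums were then -0.942, -0.754 and -0.466 (as reported -0.62, -0.432 and -0.144). They were -0.542, -0.355 and -0.0665 with DESeq2 size factors, and for beta and gamma -0.483 and -0.195 with all reads. With the covariate for no-feature reads 2 alpha and 3 gamma members were lower. So were 1 promoter choice gene, 1 pseudogene and 1 neighbour, against 5.4% of all tested genes. In that fit 3 processing genes and 4 neighbours were higher, against 7.24% of all tested genes. Without a fold cutoff 1 of 22 gamma members was higher, 12 of 24 promoter choice genes lower and 1 higher, and 5 of 21 processing genes lower. At that setting 23.5% of all tested genes were lower and 24.3% higher. With all reads, and with protein-coding genes only, 1 non-clustered protocadherin and 3 processing genes were higher, against 3948 of 24500 and 2814 of 13746 tested genes. In the latter, in which pseudogenes could not be fitted, 3 neighbours were lower, against 18% of the genes tested. GC and length curves left 1 promoter choice gene and 5 neighbours lower, against 14.3% of all tested genes. DESeq2 left 1 processing gene lower, against 13.1% of all tested genes.

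The groups share replicate numbers 3 and 4, which did not pair the libraries (correlation of deviations 0.075 and 0). A replicate block gave 29 members lower (23.2% of all tested genes), 1 non-clustered protocadherin higher and 1 processing gene lower, and the replicate block with GC and length curves gave 34 members (18% of all tested genes), 3 promoter choice genes, 1 processing gene and 5 neighbours lower.

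Leaving out a library gave 4 to 7 alpha, 6 to 7 beta and 8 to 12 gamma members lower and 0 higher, and sums of -0.656 to -0.583, -0.458 to -0.404 and -0.159 to -0.118. It gave 2 to 2 non-clustered protocadherins lower and 1 to 2 higher (1 without GFP replicate 3, GFP replicate 4 or ESRRG replicate 2), 5 to 7 promoter choice genes lower and 0 to 1 higher (1 without ESRRG replicate 2), 1 to 2 processing genes lower (1 without ESRRG replicate 2) and 3 to 7 higher (3 without GFP replicate 1 or ESRRG replicate 4), 5 to 5 pseudogenes lower, and 6 to 12 neighbours lower (6 without GFP replicate 1 or ESRRG replicate 3) and 11 to 14 higher.

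Of the log2 fold changes of named genes, 604 kept their direction and side of the threshold, 41 lost it, 6 gained it and 24 turned. With library size only PCDHGC5 was at -0.311, PCDHA12 at -0.0584, PCDHB6 at -0.245, PCDHGB7 at -0.209, CTCF at -0.198 and TAF7 at -0.0702. With GC and length curves PCDHGC3 was at -0.0269, PCDHGC5 at -0.443, PCDHA12 at -0.122, PCDHB6 at -0.157 and PCDHGB7 at -0.216, and with the replicate block as well at -0.117, -0.474, -0.0893, -0.237 and -0.228. With the covariate PCDHGC5 was at -0.00503 and TAF7 at -0.0686. With all reads PCDHGC5 was at -0.0383, when a library was left out at -0.044 (GFP replicate 3) to 0.127, and with protein-coding genes only at -0.126, PCDHB6 at -0.0617, PCDHGB7 at -0.0242 and CTCF at -0.0121. The cause of these changes was not tested.

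Depth limits the low members most, as PCDHA2 and PCDHGA3 rest on 16 to 74 reads a library, and PCDHA1 cannot be measured from this table. Loss of the constant-exon reads makes each alpha and gamma count a part of its transcripts.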
